A study of Xenopus laevis with 12 samples.

Results

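The genes of the proteasome were followed in whole Xenopus laevis embryos in which fam46a had been targeted with morpholino oligonucleotides. They were taken as every probe set whose annotated gene symbol is psm followed by a letter from a to g and a digit, or is pomp, in the .L or the .S copy. The rule gave 78 of the 32539 probe sets tested. These carry 64 of the 11303 gene symbols that the annotation names, or 46 genes when the .L and .S copies of the long and short subgenome are counted once. The rule also caught psmc3ip.L and psme3ip1.S, whose products are known in mammals as a cofactor of recombination and as a partner of a proteasome activator, and which are not subunits. A further 3 probe sets, annotated to both copies of psma4, psmc6 or psmd2, name no single copy and were kept apart.

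The proteasome is the barrel-shaped protease that degrades proteins tagged with ubiquitin. Its core particle, the 20S, is built from rings of alpha subunits, which gate the channel, and rings of beta subunits, of which psmb5, psmb6 and psmb7 carry the protease activity. Its cap, the 19S, has a base with ATPases that unfold the substrate and a lid that removes ubiquitin. Dedicated chaperones assist the assembly of the parts, such as pomp for the core. In the early frog embryo the proteasome is known for the destruction of cyclins at each cleavage division and of beta-catenin where no Wnt signal acts.

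The study asked which genes respond when fam46a is depleted. The gene codes for a poly(A) polymerase and is also named tent5a. All blastomeres of 4-cell embryos were injected near the animal pole, and RNA was taken at stage 8, in the blastula, or at stage 10.5, early gastrulation. The injections were a control oligonucleotide (CoMO, 10 ng per cell), Fam46a-MO1 (MO1, 10 ng per cell), or a mixture of Fam46a-MO2 with Fam46a-MO3 (MO2+MO3, 7 ng of each per cell), with 2 biological replicates of each at each stage. The controls therefore also carried an injected oligonucleotide, and both reagents were compared with the same 2 CoMO arrays of a stage. The total dose of the MO2+MO3 mixture was not matched by CoMO or MO1, and the effect of dose was not tested. The labels do not say whether a reagent blocks translation or splicing, nor whether replicates came from separate clutches. The p-values therefore measure at most the spread between these samples. Since each sample is a whole embryo, fewer cells that express a gene and less RNA per cell cannot be told apart.

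The targeted gene, listed as tent5a.L, has 2 probe sets, and neither was called in any comparison in either fit described below, with changes from -0.37 to 0.39 on the log2 scale. Its arrays ran from -0.46 to 0.73 at stage 8, where the lowest array of both probe sets lay below a recovered log2 level of 4, and from -0.43 to 0.38 at stage 10.5, with no group apart from the others at both probe sets. At least 1 probe set had its lowest array at a recovered log2 level of 4 or more for 5 of 5 maternal germ plasm marker genes at each stage, and for 7 of 19 germ layer and organizer marker genes at stage 8 against 17 of 19 at stage 10.5. Of 3 marker genes on the array for somatic tissues not yet formed, 1 (neurod1) also had such a probe set at each stage. A level of 4 or more therefore does not by itself show that a gene is expressed. The values below are log2 values of a probe set minus its median over the 6 arrays of the stage, so levels of different probe sets or stages cannot be compared. The lowest array lay below 4, the range of the negative control probe sets, for 8 proteasome probe sets at stage 8 and for 9 at stage 10.5. That is 10.3% and 11.5% of the 78, against 34.4% and 33.6% of all probe sets.

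A call means an adjusted p under 0.05 in a limma fit over all 12 arrays, with adjustment over every probe set tested. Arrays of a stage with the same replicate number deviated together, so a second fit took the replicate number as a block. For the median proteasome probe set the residual SD was 0.19 without the block and 0.08 with it. A p-value with the block measures only the spread left after same-numbered arrays of a stage are matched. Each ± gives the moderated standard error in the fit named, with 2 arrays per group.

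At the start of gastrulation 2 proteasome probe sets were called lower with MO2+MO3 without the block, and none higher. They are that of psmb4.L and 1 of 3 of psmd3.S, and both calls were lost when any 1 array of the comparison was left out. They are 2 of 78, or 2.56%, where 0.907% of all probe sets were called in this comparison. With the block, 13 of the 78 were lower and 0 higher. This is 16.7% of the 78, near the background of 16.8% for both directions together, which divides into 7.77% lower and 9.02% higher. With MO1 0 of 78 were called without the block, where 0.916% of all probe sets were, and 5 had an unadjusted p under 0.05. Those 5 are 6.41% of the 78, against 10.9% of all probe sets with such a p. With the block 7 were called, 5 lower and 2 higher, where 16.2% of all probe sets were called, 7.75% lower and 8.48% higher. The block calls were repeated without each of the 4 arrays of a comparison in turn. Of the 13 with MO2+MO3, 4 were kept in all 4 fits (psmb4.L, psmb7.S, psmd3.S and psmd9.L), 3 in some and 6 in none. Of the 7 with MO1, psmc6.S was kept in all 4, 2 in some and 4 in none.

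At stage 8 the fit without the block called 0 of 78 with either reagent, while 4 had an unadjusted p under 0.05 with MO1 and 6 with MO2+MO3. Those 4 and 6 are 5.128% and 7.692% of the 78, against 1.930% and 2.345% of all probe sets with such a p. For the adjusted calls the background was 0.00615% of all probe sets for MO1 and 0% for MO2+MO3. With the block 1 was called with MO1, against 0.123% of all, and 4 with MO2+MO3, against 0.141% of all. None of these stage 8 calls was kept in all 4 fits that left out 1 array.

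The changes of the whole set were small. The median change of the 78 was -0.01 with MO1 and 0.03 with MO2+MO3 at stage 8, and -0.07 and -0.05 at stage 10.5, while the corresponding medians over all probe sets were 0.02 and 0.00. At stage 10.5, 55 of the 78 had a change below 0 with MO1 and 50 with MO2+MO3. These are 70.5% and 64.1% of the 78, against 46.4% and 49.4% of all probe sets. The probe sets share their arrays and the reagents share the CoMO arrays, so these counts are not independent. The replicate 2 arrays of stage 10.5 read higher than the replicate 1 arrays for 53 to 57 of the 78 probe sets in each injection, by a median of 0.09 to 0.13. That offset is larger than the medians above. Every group holds an array of each replicate number, so only the part equal in all groups drops out of their differences. The offset had a median of 0.09 with CoMO, 0.13 with MO1 and 0.12 with MO2+MO3, and its part in the median changes was not tested. Over both stages the array medians of the 78 had a pooled within-group SD of 0.06. Within replicate 1 the medians at stage 10.5 were -0.08 and -0.05, and within replicate 2 they were -0.08 and -0.07.

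**Figure D1:**
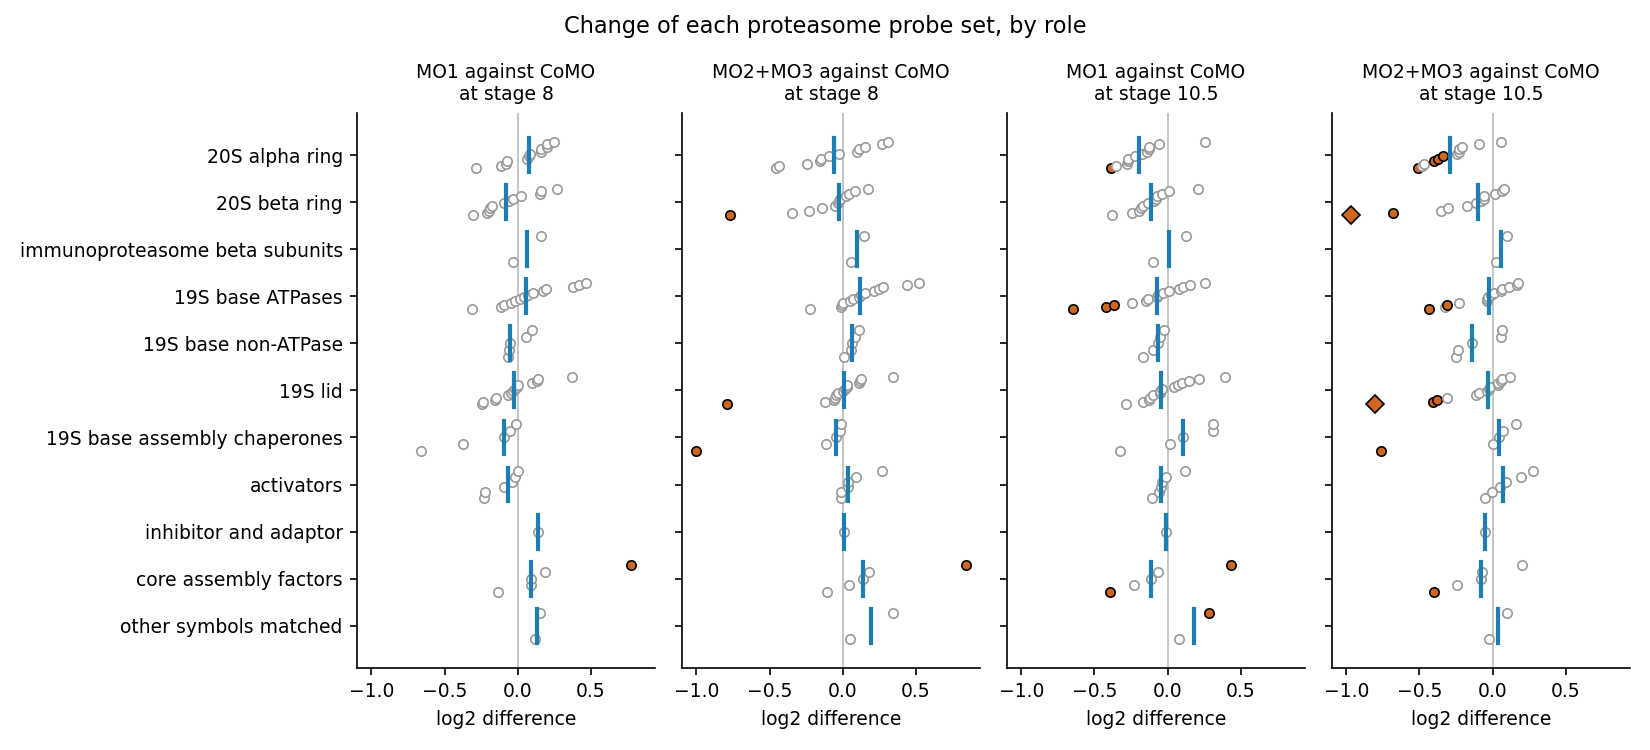
Log2 difference from CoMO (x axis) of each of the 78 probe sets, grouped by role (y axis), for each reagent and stage. Filled points were called with the replicate block, diamonds also without it, and blue lines are medians of the role. The diamonds are psmb4.L at -0.97 and psmd3.S at -0.80, both with MO2+MO3 at stage 10.5.

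Among the 12 probe sets of the 20S alpha ring, 11 had a change below 0 with each reagent at stage 10.5. Over all probe sets 46.4% had a change below 0 with MO1 and 49.4% with MO2+MO3. The median of the ring was -0.20 with MO1 and -0.29 with MO2+MO3. At stage 8 the medians were 0.08 and -0.06, with 4 and 7 of the 12 below 0. Within replicate numbers the stage 10.5 medians were -0.14 and -0.27 for MO1, and -0.27 and -0.31 for MO2+MO3. None of the 12 was called without the block, and the smallest adjusted p there was 0.293.

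With the block, 4 of the 12 alpha probe sets were called lower with MO2+MO3 at stage 10.5, or 33.3%, where 7.77% of all probe sets were called lower. They belong to psma2.L, psma3.L, psma7.L and psma7.S, all structural subunits of the outer ring, with changes of -0.37, -0.51, -0.40 and -0.34. When 1 array was left out with the block, the call of psma2.L was kept in 1 of 4 fits and those of the other 3 in 0 of 4. psma7.L read 0.00 and 0.41 with CoMO, -0.31 and 0.17 with MO1, and -0.40 and 0.00 with MO2+MO3 at that stage. Its groups overlapped, while within each replicate number MO2+MO3 lay below CoMO, by -0.39 and -0.41. Its adjusted p was 0.0147 with the block and 0.642 without.

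At stage 8 psma7.L had leaned the other way. It read -0.23 and -0.05 with CoMO and 0.05 and 0.29 with MO2+MO3, a difference of 0.31 ± 0.09 with the block that was not called. MO1 called 1 alpha probe set with the block at stage 10.5, that of psma1.S. It read 0.01 and 0.50 with CoMO and -0.25 and -0.01 with MO1, groups that did not overlap, and the change was -0.39 ± 0.10 (adjusted p = 0.0313 with the block, 0.611 without). With the block that call was kept in 0 of 4 fits that left out 1 array, and without it the change of psma1.S ran from -0.63 to -0.14 in such fits. Its .L copy had a change of -0.06.

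psma4.S was the alpha member called between the reagents, with the block alone. It read 0.10 and 0.41 with MO1, -0.35 and -0.10 with MO2+MO3 and -0.15 and 0.15 with CoMO at stage 10.5. The MO1 and MO2+MO3 arrays did not overlap, and CoMO lay between and overlapped both. The difference was 0.48 ± 0.08 with the block (adjusted p = 0.00766) and 0.48 ± 0.16 without it (adjusted p = 0.394). The block call of psma4.S was kept in 0 of 4 fits without 1 array, with adjusted p from 0.0503 to 0.0856.

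In the 20S beta ring, psmb4.L codes for a structural beta subunit whose tail helps to hold the core together. At stage 10.5 its probe set read 0.15 and 0.21 with CoMO, -0.06 and 0.06 with MO1, and -0.94 and -0.64 with MO2+MO3. The MO2+MO3 arrays were the lowest of the stage and did not overlap either other group. The change with MO2+MO3 was -0.97 ± 0.13, or 51.1% of CoMO (adjusted p = 0.021 without the block, 0.000434 with it).

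At stage 8 the MO2+MO3 arrays were again the lowest, while MO1 and CoMO overlapped. psmb4.L read 0.16 and 0.04 with CoMO, 0.05 and -0.04 with MO1, and -0.58 and -0.76 with MO2+MO3. The change with MO2+MO3 was -0.77, or 58.8% of CoMO, with an adjusted p of 0.467 without the block and 0.0227 with it. With MO1 the changes were -0.10 at stage 8 and -0.18 at stage 10.5, with 95% intervals from -0.39 to 0.20 and from -0.48 to 0.11 without the block.

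The difference between the reagents was tested directly. For psmb4.L MO1 lay 0.79 ± 0.13 above MO2+MO3 at stage 10.5 (adjusted p = 0.0493 without the block, 0.00159 with it) and 0.67 ± 0.13 above it at stage 8 (0.476 and 0.0242). Without the block the calls of psmb4.L were lost when any 1 array of the comparison was left out, with adjusted p from 0.0752 to 0.167 for MO2+MO3 against CoMO. With the block both comparisons were called in 4 of 4 such fits at stage 10.5 and in 0 of 4 at stage 8.

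Of the genes for catalytic subunits, psmb7.S, whose product cuts after basic residues, was the one called with the block. It read 0.04 and 0.35 with CoMO, -0.04 and 0.28 with MO1, and -0.66 and -0.31 with MO2+MO3 at stage 10.5. MO2+MO3 lay below both other groups without overlap, while MO1 and CoMO overlapped. The change was -0.68 ± 0.08 with the block (adjusted p = 0.00141) and -0.68 ± 0.19 without it (adjusted p = 0.171).

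At stage 8 psmb7.S read -0.05 and 0.14 with CoMO and -0.34 and -0.26 with MO2+MO3, a change of -0.34 that was not called. MO1 lay 0.61 ± 0.08 above MO2+MO3 at stage 10.5 (adjusted p = 0.00368 with the block). Leaving out 1 array at a time with the block kept both stage 10.5 calls of psmb7.S in 4 of 4 fits. The related psmb7.2.L had its lowest array below 4 at both stages and changes from -0.04 to 0.27.

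The other catalytic genes were not called in any comparison with CoMO. psmb5.L, for the chymotrypsin-like subunit, has 2 probe sets. At stage 10.5 their changes were -0.24 and -0.17 with MO1 and -0.12 and -0.06 with MO2+MO3. psmb6.L, for the caspase-like subunit, changed by -0.09 and -0.06, and psmb6.S by 0.21 and 0.08. For psmb6.L the 95% interval with MO2+MO3 ran from -0.33 to 0.21 without the block. The immunoproteasome genes psmb8.L and psmb9.S, which replace catalytic subunits in immune cells, had changes between -0.10 and 0.16, with their lowest arrays below 4 at stage 8.

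The 19S lid held the second probe set called without the block, 1 of the 3 of psmd3.S, a scaffold subunit of the lid. At stage 10.5 probe set Xl2.45764.1.S1_at read 0.08 and 0.12 with CoMO, -0.02 and 0.02 with MO1, and -0.76 and -0.65 with MO2+MO3. The MO2+MO3 arrays stood well below the other 4, which lay between -0.02 and 0.12. The change was -0.80 ± 0.09, or 57.3% of CoMO (adjusted p = 0.0144 without the block, 0.000594 with it).

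At stage 8 that probe set read 0.05 and 0.08 with CoMO, -0.04 and 0.04 with MO1, and -0.71 and -0.74 with MO2+MO3. The groups again did not overlap, and the change was -0.79 ± 0.08 with the block (adjusted p = 0.0187, and 0.160 without). MO1 changes were -0.07 and -0.10 at the stages. MO1 lay above MO2+MO3 by 0.70 at stage 10.5 (adjusted p = 0.0238 without the block, 0.0016 with it) and by 0.73 at stage 8 (0.109 and 0.0112). With the block the psmd3.S calls of stage 10.5 were kept in 4 of 4 fits that left out 1 array and those of stage 8 in 0 of 4, with adjusted p from 0.0511 to 0.325 against CoMO.

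The remaining psmd3.S probe sets did not show this. Xl2.3156.1.A1_at had changes of 0.03 and 0.04 with MO2+MO3 at stages 8 and 10.5, and Xl2.45764.1.S2_s_at had 0.02 and -0.02. With the block the 95% interval at stage 10.5 ran from -0.24 to 0.31 for the first and from -0.19 to 0.16 for the second. Taken as the mean of its 3 probe sets, psmd3.S changed by -0.26 with MO2+MO3 at stage 10.5 and was not called (adjusted p = 0.823 without the block). Without the block the call of the 1 probe set was also lost when any 1 array was left out, with adjusted p from 0.0644 to 0.118.

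**Figure D2:**
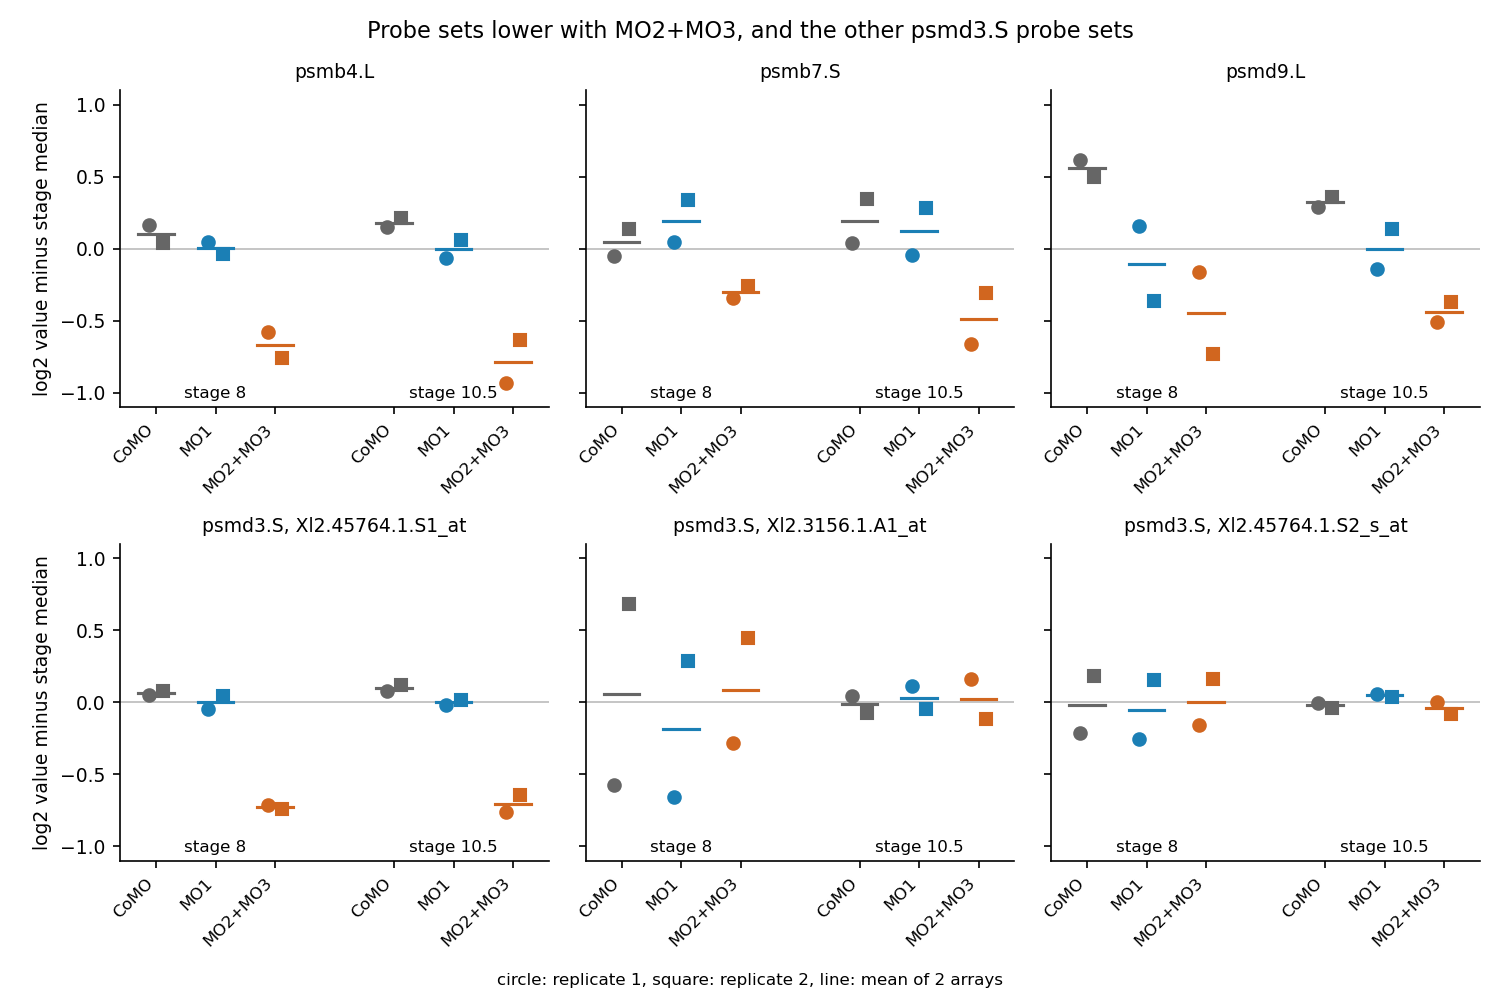
Log2 value minus the stage median (y axis) on each array of psmb4.L, psmb7.S, psmd9.L and the 3 probe sets of psmd3.S, by injection and stage (x axis). The MO2+MO3 arrays of psmb4.L lie between -0.94 and -0.58, and those of 1 psmd3.S probe set between -0.76 and -0.65, while the other psmd3.S probe sets show no such gap.

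Across the symbols with more than 1 probe set, agreement varied. There are 9 such symbols with 23 probe sets. For MO2+MO3 at stage 10.5 the gap between the highest and lowest change within a symbol had a median of 0.29 and reached 0.84, for psmd3.S. The other lid calls were made with the block alone, with MO2+MO3 at stage 10.5. psmd14.S, for the enzyme that removes ubiquitin chains, changed by -0.41 (adjusted p = 0.0354), and 1 of 2 probe sets of psmd8.L by -0.38 while its other had -0.11. Both calls were kept in 0 of 4 fits without 1 array. psmd14.L, the other copy of the lid enzyme, had its lowest array below 4 at both stages and a change of 0.12.

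Among the 14 probe sets of the base ATPases, 3 were called lower with MO1 and 2 with MO2+MO3 at stage 10.5, all with the block alone. These are 21.4% and 14.3% of the 14, where 7.75% and 7.77% of all probe sets were called lower. psmc6.S codes for 1 of the ATPases that thread the substrate into the core. At stage 10.5 it read 0.03 and 0.64 with CoMO, -0.60 and -0.03 with MO1, and -0.24 and 0.28 with MO2+MO3. All MO1 values lay below those of CoMO, and MO2+MO3 overlapped both. The change with MO1 was -0.65 ± 0.09 with the block (adjusted p = 0.00233) and -0.65 ± 0.26 without it (adjusted p = 0.406).

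Within the replicate numbers psmc6.S was lower with MO1 by -0.63 and -0.66, and with the block its call was kept in 4 of 4 fits that left out 1 array. The .L copy gave -0.42 ± 0.10 with MO1 (adjusted p = 0.0248 with the block, kept in 0 of 4 such fits). A probe set annotated to both psmc6 copies, which is not among the 78, gave -0.52 with MO1 and -0.39 with MO2+MO3 (adjusted p = 0.013 and 0.0393 with the block). These probe sets are designed on closely related transcripts and may share signal. With MO2+MO3 psmc6.S changed by -0.31 ± 0.09 (adjusted p = 0.0458 with the block), and that call was kept in 0 of 4 fits that left out 1 array.

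2 further ATPase genes were called with the block. psmc2.L read 0.06 and 0.38 with CoMO and -0.38 and -0.06 with MO2+MO3 at stage 10.5, a change of -0.44 ± 0.08 (adjusted p = 0.00676), the same within each replicate number to 2 decimals. Its groups did not overlap, and the call was kept in 1 of 4 fits without 1 array. psmc3.L changed by -0.37 ± 0.08 with MO1 at 1 probe set (adjusted p = 0.0196) and by -0.13 at its other, and at the first the difference of MO1 from MO2+MO3 was -0.42 (adjusted p = 0.0164). The psmc3.L calls were kept in 1 of 4 fits without 1 array for MO1 against CoMO and in 0 of 4 between the reagents.

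The largest ATPase changes of stage 8 were those of psmc5.L, at 0.47 with MO1 and 0.52 with MO2+MO3. The CoMO arrays read -0.53 and -0.35 and the other 4 arrays from -0.05 to 0.11, without overlap. Neither change was called in either fit. The .S copy, psmc5.S, changed by 0.42 with MO1 and 0.44 with MO2+MO3 at stage 8, also with CoMO below the other 4 arrays, and was not called. The non-ATPase subunits of the base, psmd1 and the ubiquitin receptor psmd4, had changes from -0.25 to 0.07 at stage 10.5, and none was called.

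psmd9.L, for a chaperone of base assembly, was lower with MO2+MO3 at both stages with the block. At stage 8 it read 0.62 and 0.50 with CoMO, 0.16 and -0.36 with MO1, and -0.16 and -0.73 with MO2+MO3. At stage 10.5 it read 0.29 and 0.36 with CoMO, -0.14 and 0.14 with MO1, and -0.51 and -0.37 with MO2+MO3. CoMO was highest at both stages, both reagents lay below it without overlap, and the MO1 means lay between. MO1 and MO2+MO3 overlapped at stage 8 and not at stage 10.5. MO1 lay above MO2+MO3 by 0.34 at stage 8 and 0.44 at stage 10.5, and neither difference was called in either fit.

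For psmd9.L the changes with MO2+MO3 were -1.0 ± 0.12 at stage 8 and -0.77 ± 0.12 at stage 10.5 (adjusted p = 0.0255 and 0.00394 with the block). Without the block neither was called (adjusted p of 1 and 0.203). With MO1 the changes were -0.66 and -0.33, and neither was called. The lowest array of psmd9.L lay below 4 at stage 10.5, so the size of the change there is uncertain, and its level at stage 8 was not recovered. The .S copy did not show the fall with MO2+MO3. psmd9.S changed by -0.12 and 0.07 with MO2+MO3 at stages 8 and 10.5, and its lowest array lay at 8 or above at both. With MO1 psmd9.S changed by -0.37 at stage 8 and 0.02 at stage 10.5, neither of them called. The MO2+MO3 block call of psmd9.L was kept in 4 of 4 fits without 1 array at stage 10.5 and in 0 of 4 at stage 8.

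The core assembly factors were led by pomp.S, whose product in mammals and yeast guides the beta subunits into the forming core and is degraded when the core is complete. Its probe set Xl2.21076.1.S1_at read -0.79 and -0.50 with CoMO, -0.03 and 0.29 with MO1, and 0.03 and 0.37 with MO2+MO3 at stage 8. CoMO lay below both reagents without overlap, and the reagents overlapped. The changes of 0.78 ± 0.08 and 0.85 ± 0.08 had adjusted p of 0.00992 and 0.0131 with the block, and were not called without it (adjusted p of 1 and 0.806).

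At stage 10.5 the same probe set of pomp.S read -0.28 and -0.12 with CoMO, 0.15 and 0.32 with MO1, and -0.04 and 0.04 with MO2+MO3. CoMO was again lowest, and no groups overlapped. The change was 0.44 ± 0.08 with MO1 (adjusted p = 0.00626 with the block, 0.373 without) and 0.20 ± 0.08 with MO2+MO3, which was not called (0.115 and 0.820). The stage 8 block calls of pomp.S were kept in 0 of 4 fits without 1 array for MO1 and in 1 of 4 for MO2+MO3, and the MO1 call of stage 10.5 in 2 of 4.

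The second probe set of pomp.S, Xl2.33669.1.S1_at, did not follow. It read 0.09 and 0.12 with CoMO, -0.06 and -0.00 with MO1 and 0.00 and -0.00 with MO2+MO3 at stage 8. At stage 8 its changes were -0.13 and -0.11, and at stage 10.5 -0.12 and -0.24. None was called in either fit, and with the block the 95% intervals at stage 8 ran from -0.31 to 0.04 and from -0.28 to 0.07, apart from those of the first probe set. Their mean gave changes of 0.32 and 0.37 at stage 8, which were not called without the block.

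**Figure D3:**
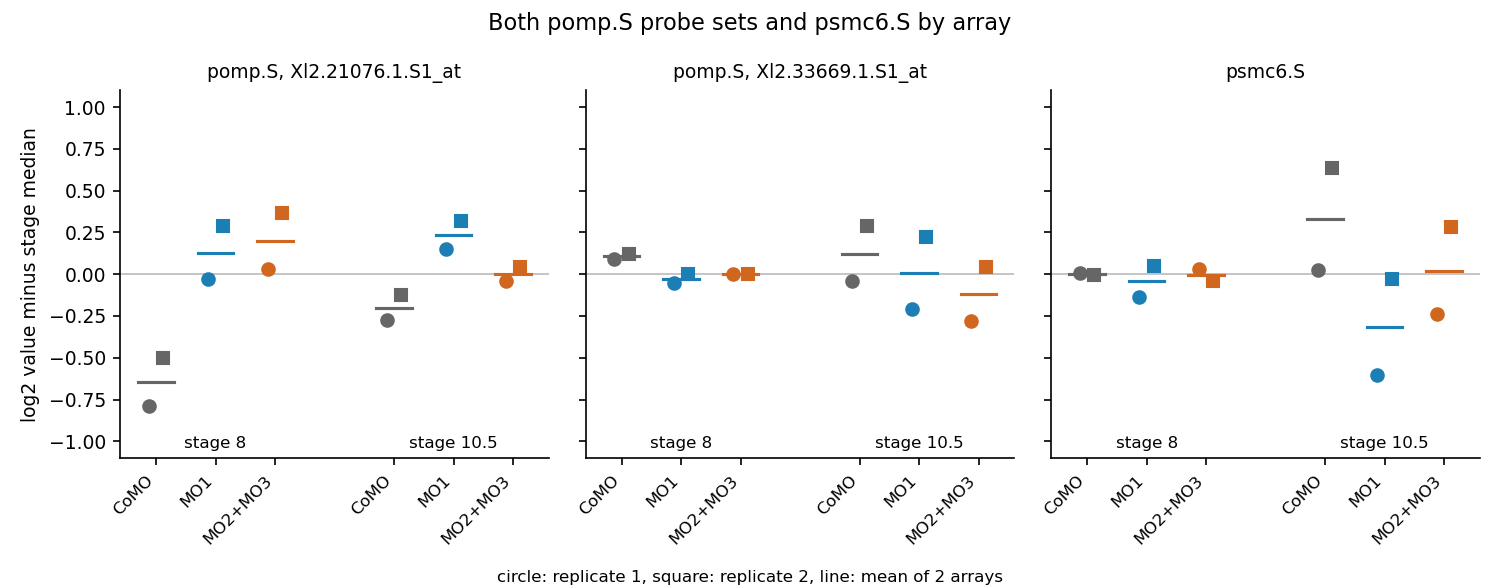
Log2 value minus the stage median (y axis) on each array for both probe sets of pomp.S and for psmc6.S, by injection and stage (x axis). In the left panel the CoMO arrays of stage 8, at -0.79 and -0.50, lie below the other 4, and in the middle panel they do not. psmc6.S separates MO1 from CoMO at stage 10.5 only.

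psmg1.L, for a chaperone of alpha ring assembly, had nearly equal changes with both reagents at stage 10.5. It read -0.11 and 0.61 with CoMO, -0.57 and 0.28 with MO1, and -0.42 and 0.11 with MO2+MO3. The groups overlapped, since the replicate 2 array of each was the higher. The changes were -0.39 ± 0.10 and -0.40 ± 0.10 with the block (adjusted p = 0.0296 and 0.0266), against standard errors of 0.37 without it. Left-out arrays ended these block calls of psmg1.L in 4 of 4 fits for MO1, while 1 of 4 kept it for MO2+MO3, where the change without the block ran from -0.77 to -0.04.

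The 6 probe sets of the activators psme1 to psme4 and that of psmf1.L, an inhibitor of the core in vitro, were not called in any comparison with CoMO, with changes from -0.23 to 0.28. Of the genes caught by symbol alone, psme3ip1.S changed by 0.28 ± 0.08 with MO1 at stage 10.5 (adjusted p = 0.0437 with the block, kept in 0 of 4 fits without 1 array) and psmc3ip.L by 0.08.

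The paired .L and .S copies could be set side by side for 18 genes. For MO2+MO3 at stage 10.5 the changes had the same sign in 9 of the 18, with a median gap between copies of 0.18. For MO1 they had it in 11 of the 18, with a median gap of 0.20. The standard error of a change had a median of 0.18 over the 78 probe sets without the block and of 0.09 with it. These are errors of a single change, not of a gap between copies, and the gaps were not tested.

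The reagents were also compared with each other over all 78. At stage 10.5 the fit without the block called 2, psmb4.L and psmd3.S, both higher with MO1, where 0.55% of all probe sets were called. An unadjusted p under 0.05 was held by 5, or 6.41% of the 78, against 8.22% of all. With the block 6 were called, against 9.75% of all, 5 higher with MO1 and 1 lower. At stage 8 the fit without the block called 0, against 0.00615% of all, and 5 had an unadjusted p under 0.05. The 5 are 6.41% of the 78, against 2.44% of all. With the block 2 were called at stage 8, where 0.381% of all were. Those 2 are again psmb4.L and psmd3.S.

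The change of each reagent's effect from stage 8 to stage 10.5 was tested in the same fits. Without the block 0 of 78 were called for MO1 and 0 for MO2+MO3, where 0.0215% and 0.00922% of all probe sets were. An unadjusted p under 0.05 was held by 0 and 3 of the 78. These are 0% and 3.85%, against 4.74% and 4.55% of all. With the block 1 was called for MO1, psmc6.S, where 4.16% of all probe sets were, and 2 for MO2+MO3, where 3.84% were. The 2 are psma7.L and 1 of 2 probe sets of pomp.S, Xl2.21076.1.S1_at. These calls were kept in 0 of 8 fits without 1 array for psmc6.S and psma7.L and in 1 of 8 for pomp.S. psmb4.L, psmd3.S and psmd9.L were not among them. Across the 78 probe sets the changes at the stages correlated at r = 0.68 (Spearman's rho 0.50) for MO2+MO3 and at 0.35 (0.26) for MO1, against 0.28 and 0.22 over all probe sets. This is across probe sets of shared arrays, which are not independent replicates.

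**Figure D4:**
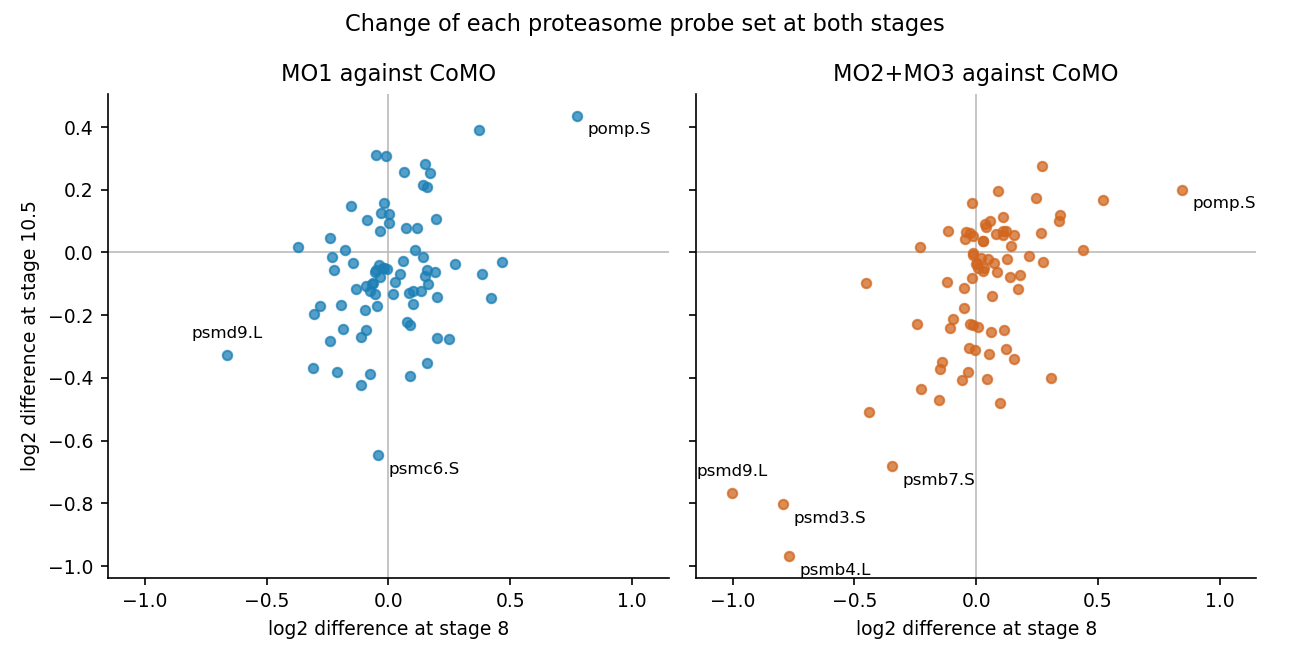
Log2 difference from CoMO at stage 8 (x axis) against that at stage 10.5 (y axis) for each of the 78 probe sets, with MO1 on the left and MO2+MO3 on the right. With MO2+MO3 psmd9.L, psmb4.L and 1 of the 3 probe sets of psmd3.S lie at -0.77 or lower at both stages, apart from the cloud around 0. The other psmd3.S probe sets lie within the cloud. The lowest array of psmd9.L lay below 4 at stage 10.5, and its level at stage 8 was not recovered.

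Other genes of the ubiquitin-proteasome system were read from a separate list of 38 symbols, some of them alternative names of the same gene. Of the symbols 27 have a probe set, with 52 probe sets in all. Without the block 1 of the 52 was called at stage 10.5 with MO1, faf1.S, an adaptor of the segregase p97, and 1 with MO2+MO3, zfand2a.L, a zinc finger gene induced by proteotoxic stress in mammals. None was called at stage 8, where 2 had an unadjusted p under 0.05 with MO1 and 0 with MO2+MO3, and with the block none was called there either. The shares called were 1.92% for each reagent at stage 10.5, against the 0.916% and 0.907% given above.

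zfand2a.L read 0.13 and -0.37 with CoMO, -0.13 and -0.27 with MO1, and 1.45 and 1.05 with MO2+MO3 at stage 10.5. The MO2+MO3 arrays stood above all others, with a change of 1.37 ± 0.23 (adjusted p = 0.0422 without the block). faf1.S read 0.11 and -0.01 with CoMO, -1.13 and -0.88 with MO1, and 0.06 and 0.01 with MO2+MO3 at 1 probe set. The MO1 arrays stood below all others, with a change of -1.05 ± 0.17 (adjusted p = 0.0378 without the block), while the other probe set of faf1.S had MO1 values of 0.17 and 0.21, above CoMO. Without the block both calls were lost when any 1 array was left out, and with it zfand2a.L was kept in 4 of 4 such fits and faf1.S in 3 of 4.

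With the block 5 of the 52 were called with MO1 at stage 10.5, 4 higher and 1 lower, and 6 with MO2+MO3, 3 higher and 3 lower. These are 9.62% and 11.5% of the 52, below the 16.2% and 16.8% of all probe sets, so the values that follow describe single genes. The lower with MO2+MO3 were both probe sets of ddi2.L at -0.76 and -0.84 and ngly1.S at -0.59. Their products, a protease and a deglycosylase, process the transcription factor that raises proteasome genes when the proteasome is inhibited in mammals. The factor itself, nfe2l1.S, has 3 probe sets that did not move together, with changes of -0.07, 0.04 and -0.57 with MO2+MO3 and of -0.01, 0.52 and 0.04 with MO1, none of them called. nfe2l2.S, for the oxidative stress factor of the same family, was higher at 0.46, with its lowest array below 4. The higher with MO1 were both probe sets of faf2.S at 0.45 and 0.36, 1 of ube3c.S at 0.32 and nploc4.S at 0.31. Of these, faf2 and nploc4 code for adaptors of p97 and ube3c for a ubiquitin ligase that acts at the proteasome. The other ube3c.S probe set was not called with MO1 and was called higher with MO2+MO3, at 0.27. The .L copies of faf2 and nploc4 were not called with either reagent. Without 1 array, the ddi2.L and ngly1.S calls were kept in 2 of 4 block fits, 1 faf2.S call in 1 of 4, and those of nfe2l2.S, ube3c.S, nploc4.S and the other faf2.S probe set in 0 of 4.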

How the data were processed

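Gene expression was measured on 12 arrays, 2 per group. The authors deposited 1 table of log2 values, which per the submitters' processing notes came from RMA. Its version, its log base and an array genome build are not given in the sources used here, and log2 was assumed. The deposited log2 values are centred, with the median of the 6 arrays of a stage at 0 for each probe set, a step no label records. The power-of-2 interval of a probe set's lowest array was read from the rounding of the values, and replaced planned filters on level.

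The table has 32635 probe sets, of which 96 controls were left out. The platform's annotation names 1 gene for 15495, several for 279 and none for 16765 of the rest, and all 78 proteasome probe sets matched the gene table used. limma 3.58.1 in R 4.3.3 was fitted to all arrays with 1 coefficient per group, eBayes without a variance trend, two-sided tests and Benjamini-Hochberg adjustment. The code was tested on simulated data. Same-numbered arrays of a stage deviated together (correlations of 0.821 to 0.864 in 6 pairs of groups, -0.0164 to 0.0244 between stages), although no label states what links them. For that reason results are given from a fit without and a fit with the replicate number, within its stage, as a block.

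The genes named are both pomp copies where measured, the catalytic beta genes, every probe set called without the block, with the block up to 8 called per direction against CoMO and 4 elsewhere, and the extremes of each role; psma2.L, psma7.S and psmd8.L, and the other probe sets of named genes, were added after their values were seen. Alternatives were the block, fits of a stage alone, array medians, quantile normalization, robust eBayes, gene means, a filter on dim probe sets and leaving out each array. The members and lists were chosen with earlier results of these data known. The number of arrays limits the precision.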

Additional observations from a re-analysis of the deposited data

Results flagged for a closer look

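For 3 proteasome probe sets the effect of a reagent differed between the stages by a direct test, a limma contrast of the effects in the fit with the replicate block. The 1 called for MO1 is 1.28% of the 78, and the 2 called for MO2+MO3 are 2.56%. Both shares lie below those of all probe sets, 4.16% for MO1 and 3.84% for MO2+MO3. For psmc6.S the MO1 effect changed by -0.60 (adjusted p = 0.0365), from -0.04 to -0.65. For 1 of 2 pomp.S probe sets, Xl2.21076.1.S1_at, the MO2+MO3 effect changed by -0.65 (adjusted p = 0.0185), from 0.85 to 0.20. The other pomp.S probe set had effects of the opposite sign, -0.11 at stage 8 and -0.24 at stage 10.5, and was not called. For psma7.L the MO2+MO3 effect changed by -0.71 (adjusted p = 0.0199), from 0.31 to -0.40. None of the 3 was called without the block, where the adjusted p was 0.979 or higher. With the block the calls were kept in 0 of 8 fits that left out 1 array for psmc6.S and psma7.L and in 1 of 8 for pomp.S.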

How the results depend on the processing

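Taking the replicate number as a block, which pairs the arrays of a stage, moved the called proteasome probe sets from 0 to 1 (MO1), 0 to 4 (MO2+MO3) and 0 to 2 (MO1 against MO2+MO3) at stage 8, from 0 to 7, 2 to 13 and 2 to 6 at stage 10.5, and from 0 to 1 (MO1) and 0 to 2 (MO2+MO3) for the change between stages. With the block over all 12 arrays the calls of stage 10.5 are 8.97%, 16.7% and 7.69% of the 78. Over all probe sets the shares there were 16.2%, 16.8% and 9.75%. For the alternatives that follow no share of all probe sets is given, so their counts have no background beside them. With the block and each stage fitted alone, stage 8 gave 0, 0 and 0, and stage 10.5 gave 5, 10 and 6. Without the block, stage 10.5 fitted alone gave 0 for MO2+MO3 and 0 between reagents; array medians and robust eBayes each gave 1 between reagents; gene means gave 1 for MO2+MO3 and 1 between reagents; leaving out 1 array gave 0 for each. With the block, leaving out 1 array gave 0 (MO1), 0 to 1 (MO2+MO3) and 0 (between reagents) at stage 8, 1 to 3, 4 to 6 and 3 at stage 10.5, and 0 and 0 to 1 for the change between stages. These fits lose a residual degree of freedom. Also with the block, and chosen after seeing the data, gene means gave 0 and 2 with MO1 and MO2+MO3 at stage 8 and 2 for the MO1 change between stages, and leaving out dim probe sets gave 4 between reagents at stage 8, 11 with MO1 at stage 10.5 and 2 for the MO1 change between stages.

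Of 461 values of 38 single changes under alternatives, 387 kept their sign and side of the threshold, 42 were called with the block where they had not been, 24 were no longer called and 8 turned. Without the block only the psmb4.L and psmd3.S changes of stage 10.5, with MO2+MO3 and between the reagents, were called. The 24 all come from these, each of which was called under 5 to 7 of 12 alternatives. The other changes had no call to lose, and many of them were followed because the block called them. Leaving out 1 array turned 3 changes with MO1 at stage 10.5, where psmc3.L ran from -0.74 to 0.0030 (without CoMO replicate 2), psmg1.L from -0.82 to 0.030 (without MO1 replicate 1) and the second probe set of pomp.S from -0.33 to 0.10 (without MO1 replicate 1; 0.049 without CoMO replicate 2). As gene means pomp.S gave 0.32 and 0.37 at stage 8 and 0.16 and -0.020 at stage 10.5, where 1 of its probe sets has the other sign. The cause of these moves was not tested.

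The median change of the 78 at stage 10.5 ran from -0.12 to -0.01 with MO1 and from -0.16 to -0.01 with MO2+MO3 when 1 array was left out. Levels are lost, so how far a dim probe set stands above background is unknown.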
